A study of Mus musculus with 6 samples.

Results

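Leukocyte miRNAs were followed in small RNA sequencing of mouse skin, in 3 libraries from animals exposed to ultraviolet A (UVA) on alternate days over 4 months (total dose 89.88 J/cm2) and in 3 libraries from non-irradiated animals. They are the entries of miR-142, miR-150, miR-223 and miR-342, and were chosen by name alone, after other results of the same libraries were known. The rule kept 8 of 1480 entries: mmu-miR-142a-3p, mmu-miR-142a-5p, mmu-miR-150-3p, mmu-miR-150-5p, mmu-miR-223-3p, mmu-miR-223-5p, mmu-miR-342-3p and mmu-miR-342-5p, written below without the species prefix. No row of the table used here was named miR-142b. The labels name both groups as skin, and the sources used here do not give strain, age or sex. Each miRNA is measured in bulk tissue, so fewer leukocytes and less miRNA per leukocyte cannot be told apart. The labels do not tell whether each replicate was its own animal, and p-values therefore speak only of the spread among these libraries.

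miRNAs are short RNAs cut from hairpin precursors; each hairpin yields a 5p and a 3p arm, and the arm loaded into an Argonaute protein represses mRNAs that match its seed, bases 2 to 8. The members mark different branches of the blood lineages. miR-142a is made by nearly all haematopoietic cells and is the pan-leukocyte member. miR-150 is abundant in mature B and T lymphocytes and represses Myb. miR-342, from an intron of the actin regulator gene Evl, is placed with the lymphoid members, although cells outside the lymphoid lineage also make it. miR-223 is the myeloid member, strongest in neutrophils, where it limits granulocyte production and activation.

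The mature sequences are shown because the arms of a hairpin are counted separately, and the balance between those of miR-223 differed between the groups. Each is written 5′ to 3′ with its seed in capitals, from RefSeq on GRCm38.p6, and each was identical to the deposited sequence of that entry.
miR-142a-3p: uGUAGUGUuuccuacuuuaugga
miR-142a-5p: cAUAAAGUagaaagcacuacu
miR-223-3p: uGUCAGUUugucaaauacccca
miR-223-5p: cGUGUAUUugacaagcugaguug
miR-342-3p: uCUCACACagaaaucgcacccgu
miR-342-5p: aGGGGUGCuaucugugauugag
miR-150-3p: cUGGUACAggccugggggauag
The seeds all differ, and no other entry among the 1480 shared the seed of a member. The nearest other sequence was 4 edits away for miR-142a-5p, namely miR-3964, and 7 to 9 edits away for the other members. The 3p arms of miR-142a, miR-223 and miR-342 begin with U, while the 5p arms of miR-142a and miR-223 begin with C and that of miR-342 with A. The GC content ran from 33.3% in miR-142a-5p to 63.6% in miR-150-3p.

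In the annotation of GRCm38, Mir142 lies on chromosome 11 at 87756864 to 87756927 on the plus strand, inside an intron of the long non-coding RNA Mir142hg. Mir142b lies over it on the minus strand, and the mature miR-142b is the reverse complement of a part of miR-142a-3p. Mir223 lies on chromosome X at 96242817 to 96242926, plus strand, in an exon of the non-coding transcript F630028O10Rik. Mir342 lies within an intron of Evl, on the plus strand of chromosome 12 at 108658620 to 108658718. Mir150 lies on chromosome 7 at 45121757 to 45121821, plus strand, outside other annotated genes. The Mir223 and Mir142 hairpins are given with both mature arms in capitals, the 5p arm first, because the balance between the arms is the measurement described below.
Mir223: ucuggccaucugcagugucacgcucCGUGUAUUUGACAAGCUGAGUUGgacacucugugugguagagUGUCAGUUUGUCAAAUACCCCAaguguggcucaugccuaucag
Mir142: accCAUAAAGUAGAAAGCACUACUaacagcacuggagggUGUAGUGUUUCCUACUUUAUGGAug

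The UVA libraries held 8194504 to 12817972 miRNA reads and the non-irradiated libraries 7653819 to 17192811, and the members took 0.0538% to 0.176% of them. Non-irradiated replicates 1 and 2 stood apart in holding 21 and 34 miRNAs with 1 to 9 reads, against 299 in replicate 3 and 579 to 591 in the UVA libraries. Every member except miR-150-3p had 25 or more reads in each library, above that range. Striated muscle miRNAs made up 28.5% to 39.7% of miRNA reads in non-irradiated skin and 5.08% to 7.16% in UVA skin. The total reads per library that the authors used were also apart, at 20.5 to 21.9 M in UVA and 26.9 to 30.5 M in non-irradiated skin. Neither the muscle share nor the total can be told apart from the treatment. The keratinocyte miRNAs that mark skin were present, with a summed level of 34090 to 86160 counts-per-million (CPM) in UVA and 44040 to 53950 CPM in non-irradiated skin. Levels below are CPM scaled by TMM, which sets the libraries to a common level for most miRNAs.

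The question for the members was whether leukocyte miRNAs differ between UVA and non-irradiated skin, and whether pan-leukocyte, lymphoid and myeloid members do so alike. Of the 7 tested members, 1 was called by edgeR's quasi-likelihood test at an adjusted p of 0.05 or lower, miR-150-5p, and it fell. Among all tested miRNAs 21.8% were called, 13.6% higher and 8.22% lower. At an unadjusted p of 0.05 the members passing were miR-150-5p and miR-142a-3p, against 40.7% of all tested miRNAs. Of the members 4 had negative log2 fold changes, against 44.5% of all tested miRNAs. The groups did not overlap for 2 members, both lower in UVA, against 48.3% of all tested miRNAs (20.0% lower and 28.3% higher in UVA). In the authors' deposited table no member had a q of 0.05 or lower, against 3.99% of all entries, and miR-150-5p and miR-223-5p had a p of 0.05 or lower, against 12.8% of all entries. The 8th member, miR-150-3p, did not pass the filter on low counts.

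**Figure D1:**
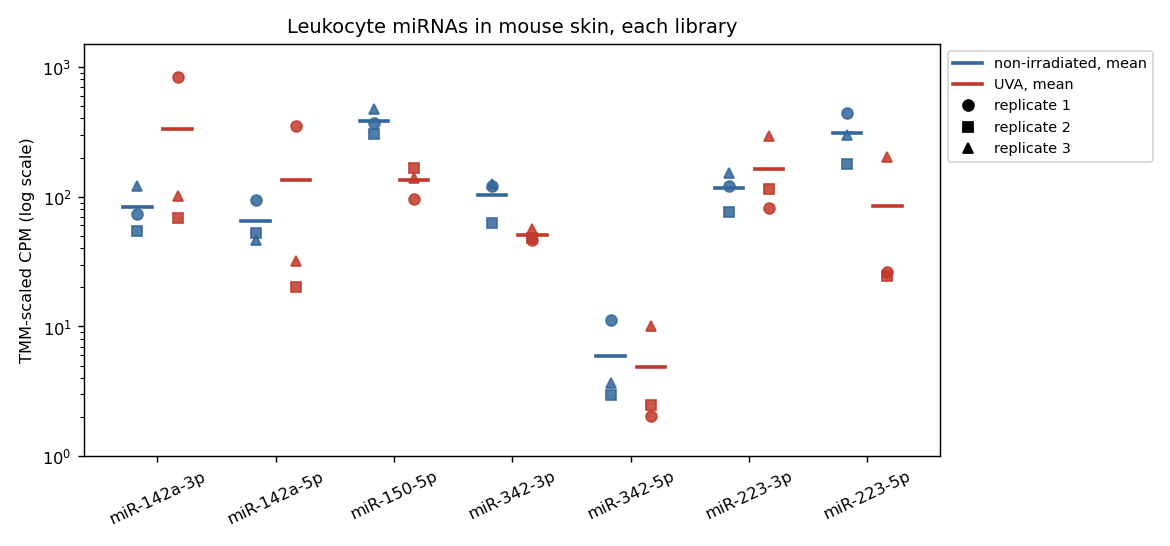
Level of the 7 tested leukocyte miRNAs in TMM-scaled CPM on a log axis; each point is 1 library, its shape gives the replicate and the bar is the group mean (n = 3). UVA replicate 1 lies far above all others for both arms of miR-142a, miR-150-5p and miR-342-3p lie lower in all 3 UVA libraries, and UVA replicate 3 lies above the other UVA libraries for both arms of miR-223.

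Among the lymphoid members, miR-150-5p had the highest mean of all members in non-irradiated skin. By level it ranked 75 to 89 among all tested miRNAs there, and 128 to 145 in UVA skin. It stood at 95.5, 166.1 and 139.7 CPM in UVA replicates 1, 2 and 3, compared with 371.1, 303.5 and 470.5 CPM in non-irradiated replicates 1, 2 and 3. Every UVA library was lower than every non-irradiated one, so the groups did not overlap. The mean fell from 381.7 ± 84.0 to 133.8 ± 35.7 CPM (SD, n = 3 per group), a log2 difference of -1.51 (SE 0.47, adjusted p = 0.0461 by edgeR). The groups were also apart with library size alone, at 116.8 to 201.4 CPM in UVA and 231.1 to 422.1 CPM in non-irradiated skin, and in the deposited reads-per-million (RPM), at 66.6 to 107.4 and 120.1 to 151.5. The call was close to the threshold: it was lost when only library size was used for scaling (log2 fold change -0.99, adjusted p = 0.143 by edgeR) and under the authors' totals (-0.73, adjusted p = 0.298 by edgeR). It was also lost without each single library other than non-irradiated replicate 2 (edgeR adjusted p from 0.0578 to 0.104; 0.0492 without that library). In the authors' deposited table miR-150-5p had a log2 fold change of -1.47 with a p of 0.0407 and a q of 0.339.

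miR-342-3p, the second lymphoid member, was at 46.4, 47.8 and 56.7 CPM after UVA and at 121.6, 62.4 and 125.4 CPM without it. Its UVA values lay close together and under all non-irradiated values, with non-irradiated replicate 2 the nearest. The means were 50.3 ± 5.56 and 103.1 ± 35.3 CPM (SD, n = 3 per group), with a log2 fold change of -1.04 (SE 0.49) that was not called (adjusted p = 0.141 by edgeR). Scaled by library size only the groups overlapped, at 56.8 to 67.5 CPM in UVA and 47.5 to 112.5 CPM in non-irradiated skin, and the log2 fold change was -0.52. With the authors' total reads it was -0.25.

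The minor arms of the lymphoid hairpins were scarce. miR-342-5p was at 2.04, 2.46 and 10.04 CPM in UVA and at 11.1, 2.98 and 3.64 CPM in non-irradiated skin. The groups overlapped, with UVA replicate 3 and non-irradiated replicate 1 high (log2 fold change -0.30, SE 0.91, adjusted p = 0.843 by edgeR). The UVA mean of 4.85 CPM was 2.25 CPM without UVA replicate 3, and the non-irradiated mean of 5.92 CPM was 3.31 CPM without replicate 1. miR-150-3p had 5, 3 and 8 reads after UVA and 0, 13 and 7 without it, where the 0 allows up to 0.249 CPM (3 counts) by counting error alone. The 0 is in non-irradiated replicate 1, which held few miRNAs with 1 to 9 reads, and the bound takes no account of this.

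The group mean of the pan-leukocyte miR-142a rested on a single library. miR-142a-3p was at 835, 68.1 and 100.3 CPM in UVA replicates 1, 2 and 3 and at 74.1, 54.3 and 121.6 CPM in the non-irradiated replicates. UVA replicate 1 was 6.87-fold above the next library, while the other UVA libraries lay among the non-irradiated ones. This gap between the highest library and the next ranked 4 among 283 miRNAs with a mean of 10 CPM or more, and it was the largest among the 42 of them that were highest in UVA replicate 1. The group means were 334.5 ± 433.8 and 83.3 ± 34.6 CPM (SD, n = 3 per group), and the log2 fold change of 2.01 (SE 0.90) was not called (adjusted p = 0.122 by edgeR). Without UVA replicate 1 the UVA mean was 84.2 CPM and the log2 fold change -0.077 (adjusted p = 0.942 by edgeR).

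miR-142a-5p followed the same library, at 349.8, 20.2 and 31.7 CPM in UVA and 94.5, 52.9 and 46.5 CPM in non-irradiated skin. The other UVA libraries were below all non-irradiated ones, so the groups overlapped only through UVA replicate 1. The log2 fold change was 1.05 (SE 0.95, adjusted p = 0.430 by edgeR). Without UVA replicate 1 the UVA mean was 25.9 CPM in place of 133.9 CPM and the log2 fold change was -1.41 (adjusted p = 0.101 by edgeR). In the DESeq2 Wald test, the miR-142a arms were 2 of 6 tested miRNAs left without an adjusted p.

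Of the 4 erythroid entries, markers of red blood cells, 2 were also highest in UVA replicate 1 and 2 were highest in a non-irradiated library. miR-451a was at 2953, 516.6 and 643 CPM in UVA and at 1213, 516.1 and 1221 CPM in non-irradiated skin, and miR-144-3p at 143, 10.6 and 8.20 CPM and in non-irradiated skin at 46.6, 12.1 and 17.6 CPM. miR-144-5p, from the hairpin of miR-144-3p, was at 31.3, 6.73 and 6.56 CPM in UVA and at 41.6, 9.85 and 52.3 CPM in non-irradiated skin, so that UVA replicate 1 was high among the UVA libraries only. The merged miR-486a-5p/miR-486b-5p, also found in muscle, was at 307.2, 279.6 and 804.2 CPM in UVA and 845.5, 1580 and 1623 CPM in non-irradiated skin. All 5 names of the erythroid list were present in 4 entries, with a summed level of 813.5 to 3434 CPM in UVA and 2118 to 2914 CPM in non-irradiated skin. Of these 4, 0 were called by edgeR, against 21.8% of all tested miRNAs, and 1 was lower at an unadjusted p of 0.05, against 15.6%. The DESeq2 Wald test and limma-voom each called 1 lower, against 15.4% and 13.4% of all tested miRNAs. The part of blood in the miR-142a level of UVA replicate 1 was not tested. In that library miR-150-5p was at its lowest of the 6 libraries and miR-223-3p at its lowest of the UVA group. The level of miR-223-5p there, 26.5 CPM, lay between those of UVA replicates 2 and 3 (24.4 and 202.4 CPM).

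The arms of the myeloid miR-223 had log2 fold changes of opposite sign in the main fit, neither of them called. miR-223-3p was at 81.4, 114.2 and 291.7 CPM in UVA and at 119.9, 75.5 and 153.2 CPM in non-irradiated skin. Only UVA replicate 3 lay above the non-irradiated range, and the groups overlapped (means 162.4 ± 113.1 and 116.2 ± 39.0 CPM, SD, n = 3 per group), with a log2 fold change that was not called (0.48, SE 0.59, adjusted p = 0.568 by edgeR). Without UVA replicate 3 the UVA mean was 97.8 CPM and the log2 fold change -0.24, and without non-irradiated replicate 2 it was -0.16.

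miR-223-5p was at 26.5, 24.4 and 202.4 CPM in UVA and at 442.7, 178.6 and 300.7 CPM in non-irradiated skin. UVA replicates 1 and 2 lay far below the non-irradiated libraries, and UVA replicate 3 lay between non-irradiated replicates 2 and 3. The means were 84.4 ± 102.2 and 307.3 ± 132.2 CPM (SD, n = 3 per group), with a log2 fold change of -1.87 (SE 0.84) that was not called (adjusted p = 0.122 by edgeR). It was called lower without UVA replicate 3 (log2 fold change -3.58, adjusted p = 0.00763 by edgeR; UVA mean 25.4 CPM), with the DESeq2 Wald test (adjusted p = 0.0353) and with limma-voom (adjusted p = 0.0321). In the authors' deposited table its log2 fold change was -1.91 with a p of 0.00395 and a q of 0.0824, the smallest q among the members.

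The use of the arms does not depend on how libraries are scaled, since both arms are read from the same library. In non-irradiated skin the 5p arm held 78.7%, 70.3% and 66.2% of miR-223 reads in replicates 1, 2 and 3. In UVA skin it held 24.5%, 17.6% and 41.0%. The more frequent arm was thus 5p in every non-irradiated library and 3p in every UVA library. The exact Clopper-Pearson 95% intervals of the nearest libraries did not meet, at 39.6% to 42.4% in UVA replicate 3 and 64.6% to 67.9% in non-irradiated replicate 3. These intervals cover counting error only, and libraries within a group could differ by them too, with 15.9% to 19.4% in UVA replicate 2. The mean log2 ratio of 5p to 3p reads was -1.46 ± 0.86 with UVA and 1.37 ± 0.47 without it (SD, n = 3 per group), a difference of -2.82 (SE 0.74, limma adjusted p = 0.00138). Of 74 hairpins whose arms each had 10 or more reads in every library, 36.5% were called for arm use, 21.6% toward 3p and 14.9% toward 5p in UVA, and 40.5% passed at an unadjusted p of 0.05. The groups did not overlap for 44.6% of the hairpins, and the difference pointed toward 3p in 52.7%. The miR-223 difference ranked 8 of 74 toward 3p and 13 of 74 by p. It was called without each single library in turn (limma adjusted p from 0.000211 to 0.0327), and not without non-irradiated replicates 1 and 2 together (difference -2.43, limma adjusted p = 0.187), which leaves a lone non-irradiated library assumed to vary like the UVA group.

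**Figure D2:**
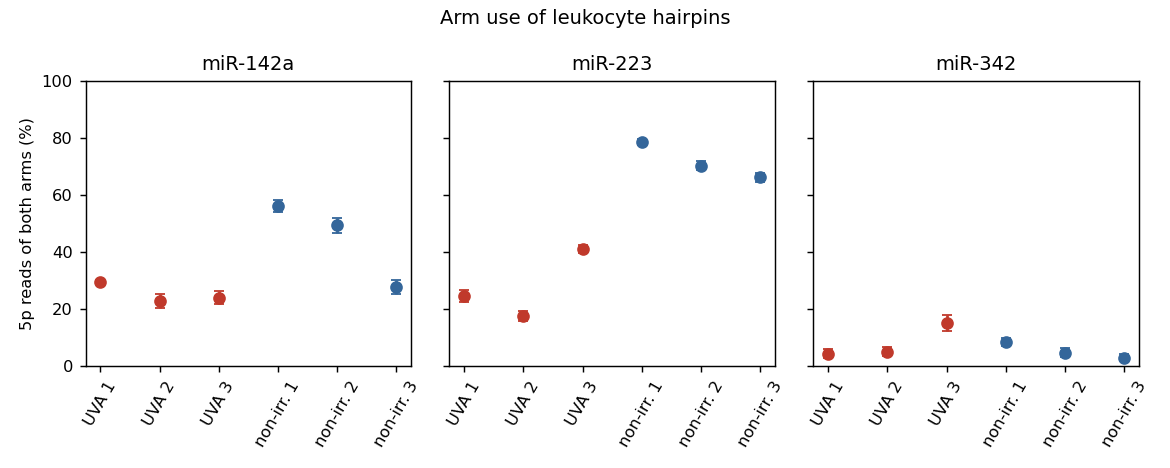
Share of 5p reads among the reads of both arms, in percent, for miR-142a, miR-223 and miR-342 in each library (red UVA, blue non-irradiated); bars are exact 95% binomial intervals, which cover counting error only. For miR-223 the UVA libraries lie between 17.6% and 41.0% and the non-irradiated libraries between 66.2% and 78.7%.

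For miR-142a and miR-342 the difference in arm use was not called, and miR-150 was not tested because its 3p arm had too few reads. The 5p arm of miR-142a held 29.5%, 22.9% and 24.0% of reads in UVA and 56.1%, 49.4% and 27.6% in non-irradiated skin, where replicate 3 lay within the UVA range (difference in log2 ratio -1.20, SE 0.74, limma adjusted p = 0.194; difference -0.17 without non-irradiated replicates 1 and 2 together). UVA replicate 1, with its high total of miR-142a, was close to the other UVA libraries in arm use. The 3p arm dominated miR-342 in every library, and its 5p arm held 4.21%, 4.90% and 15.1% in UVA and 8.39%, 4.56% and 2.82% in non-irradiated skin (difference 0.55, SE 0.75, limma adjusted p = 0.571). Leaving out UVA replicate 3 gave -0.075, and leaving out non-irradiated replicates 1 and 2 together gave 1.33. For miR-150 the 5p arm held 99.4% or more in each library.

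Summed by class, the members differed in make-up between libraries. The pan-leukocyte miR-142a arms took 82.5% of member reads in UVA replicate 1, 19.9% and 15.8% in UVA replicates 2 and 3, and 13.7% to 14.7% in non-irradiated skin. The lymphoid miR-150 and miR-342 took 10.04%, 48.8% and 24.9% in UVA and 40.8% to 50.6% in non-irradiated skin. The myeloid miR-223 took 7.51%, 31.3% and 59.3% in UVA and 34.8% to 45.6% in non-irradiated skin. The UVA libraries thus each had another leading class: pan-leukocyte in replicate 1, lymphoid in replicate 2 and myeloid in replicate 3. The summed lymphoid level was 144.3, 216.5 and 207.2 CPM in UVA and 503.8, 369.9 and 600.5 CPM in non-irradiated skin, and only for this class did the groups not overlap. The exact 95% intervals of these shares had half-widths of at most 1.3 percentage points.

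**Figure D3:**
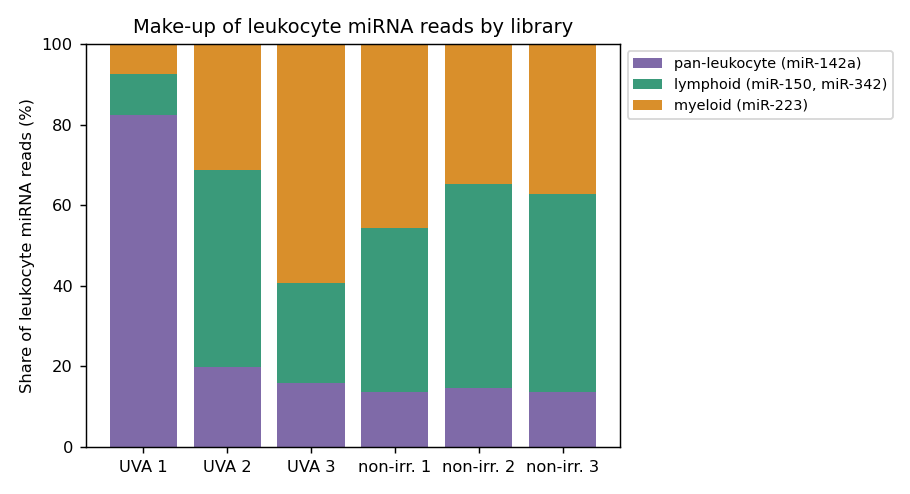
Share of all leukocyte miRNA reads, in percent, taken by miR-142a, by miR-150 with miR-342, and by miR-223 in each library; each bar adds up to the member reads of 1 library. The miR-142a share is 82.5% in UVA replicate 1 and 13.7% to 19.9% in the other libraries.

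Ratios between hairpins within a library also leave out the scaling. Each hairpin was represented by the arm with the higher mean CPM over the 6 libraries, which for miR-223 was 5p, the less frequent arm in every UVA library. The ratio of miR-142a-3p to miR-150-5p was 3.13, -1.29 and -0.48 on the log2 scale in UVA and -2.32, -2.48 and -1.95 in non-irradiated skin. All UVA libraries had more miR-142a-3p per miR-150-5p than any non-irradiated library (difference 2.71, SE 1.37). The difference was 1.37 without UVA replicate 1. miR-142a-3p was likewise higher relative to miR-342-3p, with a difference of 2.15 (SE 1.19) and 0.99 without UVA replicate 1, and relative to miR-223-5p, with a difference of 3.68 (SE 1.78) and 2.10 without UVA replicate 1. The groups did not overlap for either ratio. All of these ratios share miR-142a-3p, and the share of non-overlap among ratios of other miRNA pairs was not computed. For the levels of single miRNAs that share was 48.3% of all tested. With miR-223-3p in place of miR-223-5p the difference of miR-142a-3p over miR-223 was 0.86. With miR-142a-5p in place of miR-142a-3p the differences were 1.51 over miR-150-5p, 0.95 over miR-342-3p and 2.48 over miR-223-5p. These differences with other arms include UVA replicate 1 and were not computed without it. Without that library the edgeR log2 fold changes were -1.41 for miR-142a-5p, -1.40 for miR-150-5p, -1.07 for miR-342-3p and -1.57 for miR-223-5p. They were -0.077 for miR-142a-3p and 0.70 for miR-223-3p. The ratios of miR-142a-3p to miR-150-5p, miR-342-3p and miR-223-5p each had a p of 0.1 in the exact permutation test, 2-sided. That is the smallest that 3 against 3 allows, and it was 0.2 when adjusted over the 6 pairs. No test was run with the other arms.

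The groups overlapped for the other pairs. The ratio of the lymphoid members, miR-150-5p to miR-342-3p, was 1.04, 1.80 and 1.30 on the log2 scale in UVA and 1.61, 2.28 and 1.91 in non-irradiated skin (difference -0.55, SE 0.30; exact permutation p = 0.2, adjusted 0.3). Its SD was 0.38 in UVA, the smallest of the 6 pairs there, and 0.34 in non-irradiated skin, where 2 pairs had a smaller SD. The lymphoid to myeloid ratio depended on the arm taken for miR-223: for miR-150-5p over miR-223-5p the difference was 0.97 (SE 1.04; exact permutation p = 0.5, adjusted 0.5), and with miR-223-3p it was -1.85. With miR-223-5p the difference was 0.27 without UVA replicate 2 and 1.92 without UVA replicate 3. For miR-223-5p over miR-342-3p it was -1.53 (SE 0.93; exact permutation p = 0.3, adjusted 0.36), and with miR-223-3p it was 1.30. With miR-223-5p this difference was -1.04 without UVA replicate 2 and -2.44 without UVA replicate 3.

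**Figure D4:**
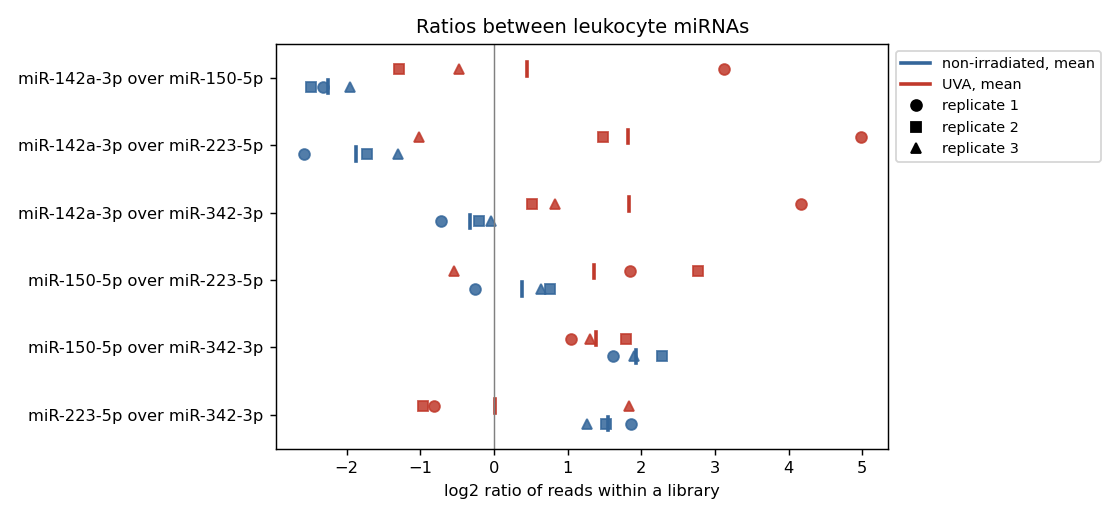
log2 ratio of reads between 2 hairpins within each library, for the 6 pairs, each hairpin by its arm with the higher mean CPM over the 6 libraries (5p for miR-223, 3p being the more frequent arm in UVA); point shapes give the replicate, bars the group means (n = 3). For the 3 ratios with miR-142a-3p on top the UVA libraries lie to the right of all non-irradiated ones, with UVA replicate 1 farthest.

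How far the members depend on scaling differed by member. Taking the authors' total reads as library size raised the median log2 fold change over the whole table from 0.27 to 1.07, and library size alone raised it to 0.81. With the same shift, miR-142a-3p stood at 3.03 with the authors' total reads and was then called (adjusted p = 0.0243 by edgeR), with deposited values of 44.0 to 597.8 RPM in UVA and 23.3 to 31.0 RPM in non-irradiated skin. miR-223-3p stood at 1.17, close to that median, and was not called (adjusted p = 0.129 by edgeR), with 58.3 to 139.0 RPM in UVA and 32.5 to 48.95 RPM in non-irradiated skin. miR-150-5p, miR-342-3p and miR-223-5p had negative log2 fold changes under each scaling tried, and miR-342-5p was positive when scaled by library size only (0.23) or by the authors' totals (0.21).

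**Figure D5:**
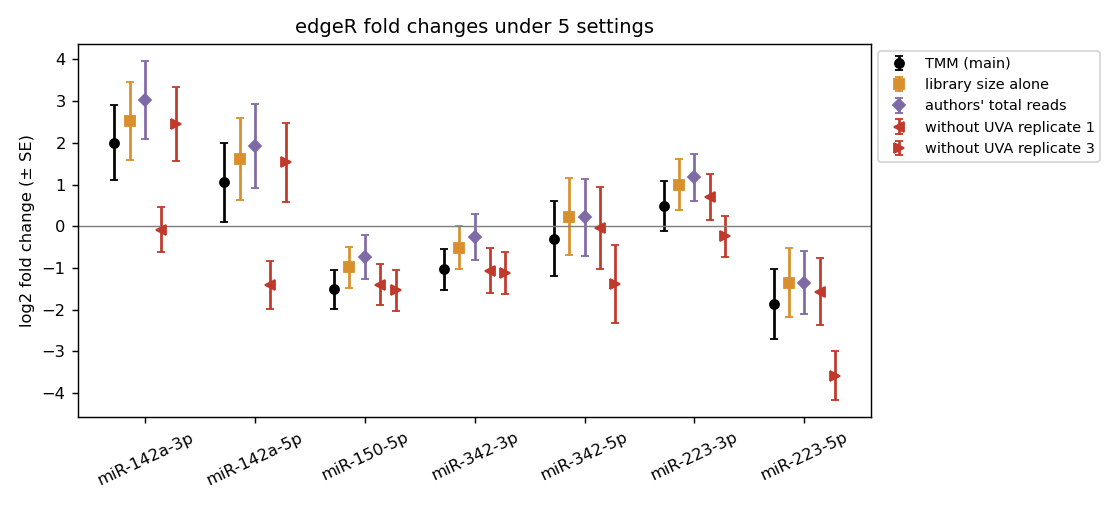
log2 fold change of UVA over non-irradiated skin with its SE for the 7 tested members in edgeR, scaled by TMM, by library size only, by the authors' totals, and by TMM without UVA replicate 1 or 3. Both arms of miR-142a change sign without UVA replicate 1, and miR-223-3p changes sign without UVA replicate 3. miR-150-5p, miR-342-3p and miR-223-5p stay below 0 in all 5 settings.

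Other miRNAs linked to leukocytes were compared through a list of 12, all tested. They include the inflammation-induced miR-146 and miR-155, the miR-181 family known from thymocytes, miR-511, miR-147 and miR-652 of monocytes and macrophages, and miR-221 and miR-222, known from mast cells; several are also made by other skin cells. The miR-181 members, and miR-146a and miR-146b, are close in sequence, and how reads were split between them is not known here. Of the 12, 6 rose, 0 fell and 6 were not called, and none had a negative log2 fold change (median 1.49 against 0.27 for all tested miRNAs, of which 13.6% rose). miR-181a-5p rose from 1325 ± 283.5 to 4511 ± 1752 CPM and miR-146a-5p from 1843 ± 307.7 to 4385 ± 1177 CPM (SD, n = 3 per group). miR-221-3p (log2 fold change 3.23), miR-181c-5p (2.66), miR-222-3p (2.46) and miR-181b-5p (1.70) also rose (edgeR, adjusted p from 0.00647 to 0.0327). miR-146b-5p was at 2082 ± 633.3 CPM with UVA and 1949 ± 405.0 CPM without it (log2 fold change 0.096, adjusted p = 0.897 by edgeR).

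Markers of other skin cells moved as well. Of the 5 fibroblast miRNAs 3 rose and 0 fell, against 13.6% and 8.22% of all tested miRNAs. None had a negative log2 fold change, against 44.5% of all, and the median was 1.80. The fibroblast miRNAs summed to 19110 to 28740 CPM in UVA and 2816 to 4234 CPM in non-irradiated skin, where the leukocyte-linked list summed to 13010 to 15820 and 4928 to 6785 CPM. Of the 2 endothelial and the 2 smooth muscle miRNAs, 0 rose and 1 fell in each list (medians -1.16 and -1.44). Of the 4 adipose miRNAs 0 were called. Of the 7 keratinocyte miRNAs 1 rose and 0 fell, and of the 5 tested striated muscle miRNAs 1 rose and 1 fell. The 1 melanocyte miRNA rose. The part of fibroblasts in the leukocyte-linked values was not tested.

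UVA replicate 1, where miR-142a was high, held the highest value for 5 of the 12 leukocyte-linked miRNAs, UVA replicate 2 for 4 and UVA replicate 3 for 3. Among 283 miRNAs with a mean of 10 CPM or more, a set without miR-147-3p, these libraries were highest for 42, 66 and 60. miR-155-5p was at 63.7 CPM in UVA replicate 1 against 262.1 and 210.2 CPM in UVA replicates 2 and 3. It was at 67.6, 42.7 and 54.5 CPM in the non-irradiated libraries (log2 fold change 1.70, adjusted p = 0.0661 by edgeR). miR-181a-5p was at 2596 CPM in UVA replicate 1 against 6033 and 4904 CPM. miR-146a-5p was highest in UVA replicate 1, at 5675 CPM against 4110 and 3370 CPM, as were miR-146b-5p (2813 CPM), miR-181c-5p (71.5 CPM), miR-511-3p (20.4 CPM) and miR-147-3p (4.78 CPM). The count of 6 was 1 when UVA replicate 2, non-irradiated replicate 1 or non-irradiated replicate 2 was left out singly, where 3.55%, 4.37% and 4.80% of all tested miRNAs were called higher. It was 3 without non-irradiated replicate 3, where 14.7% of all were. Without non-irradiated replicates 1 and 2 together edgeR called 0, with 1 higher at an unadjusted p of 0.05, and 0 of all 594 miRNAs tested there were called higher. With all libraries 9 were higher and 0 lower at an unadjusted p of 0.05, against 25.1% and 15.6% of all tested miRNAs. The DESeq2 Wald test called 8 higher, against 22.8%, and limma-voom 6, against 16.8%.

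The miRNAs with the most similar profile to miR-142a-3p, miR-150-5p, miR-223-5p and miR-342-3p were sought among 277 other tested miRNAs with a mean of 10 CPM or more, by the root mean square difference of log2(CPM + 1) over the 6 libraries after centring. The nearest to miR-142a-3p was miR-24-2-5p (difference 0.578), at 4850, 948.4 and 1459 CPM in UVA and 667.2, 533.6 and 600.7 CPM in non-irradiated skin, followed by miR-141-5p (0.631) and miR-32-5p (0.654). Each of these was also highest in UVA replicate 1. miR-150-5p was nearest to miR-409-5p (0.185), miR-204-5p (0.249) and miR-450a-5p (0.310), and miR-342-3p to miR-450a-5p (0.322), miR-9-5p (0.328) and miR-22-3p (0.353). miR-223-5p was nearest to miR-206-3p (0.421), a skeletal muscle miRNA at 3589, 4284 and 29620 CPM in UVA and 41510, 21010 and 21030 CPM in non-irradiated skin, then to miR-382-5p (0.463) and miR-196a-1-3p (0.509). In this profile too, UVA replicate 3 lay within the non-irradiated range and the other UVA libraries below it. Other striated muscle miRNAs did not all share it. miR-1a-3p was at 54390, 36450 and 20090 CPM in UVA and 437300, 352400 and 296900 CPM in non-irradiated skin. For miR-133a-3p the groups overlapped, and miR-133b-3p was higher in every UVA library. miR-499-5p was lower in every UVA library, with UVA replicate 3 the highest of them. The part of muscle in the miR-223-5p values was not tested.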

How the data were processed

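Skin RNA was taken with the mirVana kit and sequenced from TruSeq Small RNA libraries, as the labels' protocols state. The deposited counts are whole-number reads per mature miRNA, and the deposited RPM values are those counts divided by 1 constant per library, which gives the authors' total reads. Bowtie appears in the submitters' processing notes with no version, and no genome build or miRNA database was named. The deposited mean signal values, fold changes as a ratio and on the log2 scale, p-values and q-values come from the authors' own comparison, per the file headers. A further 2 lines were not analysed here.

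The whole table was fitted with edgeR 4.0.16 in R 4.3.3 (quasi-likelihood test, TMM, filterByExpr, Benjamini-Hochberg over all tested miRNAs, called at 0.05 or lower). The SE of a log2 fold change is its size over the square root of F. Arm use was fitted with limma 3.58.1 on log2 ratios of 5p to 3p reads after adding 0.5; ratios between members also used 0.5. DESeq2 1.42.0, limma-voom, other scalings, no filter, a replicate term and left-out libraries were alternatives. The members, the lists and the tests were chosen with earlier results of these data known. All members were named. So were the called and most abundant members of the leukocyte-linked list, 2 erythroid markers and the 3 nearest profiles of 4 members. miR-155-5p, miR-147-3p, miR-511-3p, miR-144-5p and miR-486a-5p/miR-486b-5p were added after their values were seen. The same holds for the striated muscle miR-1a-3p, miR-133a-3p, miR-133b-3p and miR-499-5p. The edgeR and arm use fits were first tested on simulated data, where edgeR called 2.13% of the changes between groups set at 2-fold, 37.8% of those set at 4-fold and 80.0% at 8-fold, and the arm fit called 95.8% at 8-fold. Intervals and floors cover counting error only, since reads carry no molecular identifiers. All pairs of replicates differed beyond sampling noise.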

Additional observations from a re-analysis of the deposited data

How the results depend on the processing

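Both miR-142a arms, miR-223-3p and miR-342-5p changed direction under some alternatives, and the cause was not tested. The count of called miRNAs was 109, and it was 167 with the authors' totals, 191 with DESeq2, 38 to 124 without single libraries and 1 without non-irradiated replicates 1 and 2 together. The log2 fold change of miR-142a-3p was called with the authors' totals (3.03) and without a filter (2.15), and ran from -0.077 to 2.49 without single libraries. That of miR-142a-5p was -2.1e-05 with limma-voom and ran from -1.41 to 1.57 without single libraries. miR-150-5p was not called with library size only (-0.99), with the authors' totals (-0.73), without a filter (-1.63) or without non-irradiated replicates 1 and 2 together (-2.20), and ran from -1.98 to -1.40 without single libraries; it was called by DESeq2 and limma-voom. miR-223-3p was at -0.40 without those replicates together and ran from -0.24 to 0.70 without single libraries, with -0.16 without non-irradiated replicate 2. miR-223-5p was called without a filter (-2.13), with DESeq2 (-1.96) and with limma-voom (-2.53), and ran from -3.58 to -1.43 without single libraries and from -3.58 to -1.35 over all alternatives. miR-342-5p was at 0.23 with library size only and 0.21 with the authors' totals, and ran from -1.38 to 0.21 without single libraries, with 0.024 without UVA replicate 2. miR-342-3p kept its direction, uncalled, in all 16 alternatives (-1.68 to -0.25).

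The leukocyte-linked list had 1 to 7 called members and the erythroid list 0 to 1 without single libraries. There the arm difference of miR-342 ran from -0.075 to 0.98, and the called hairpins numbered 16 to 28. With the other arm of miR-223, the log2 ratio difference was 0.86 for miR-142a-3p over miR-223, -1.85 for miR-150-5p over miR-223 and 1.30 for miR-223 over miR-342-3p, and with the other arm of miR-342 it was -1.11 for miR-150-5p over miR-342. Leaving out non-irradiated replicates 1 and 2 together was added after seeing the data for lists and arms, and gave 0 called leukocyte-linked members, 4 called hairpins and arm differences of -2.43 for miR-223, -0.17 for miR-142a and 1.33 for miR-342.

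The deviations of same-numbered libraries correlated at 0.090, -0.062 and -0.053, and 2 of 6 libraries correlated best with their own number. These values show no pairing by replicate number, but with 3 libraries per group they cannot exclude one. With the replicate block, miR-150-5p was not called (-1.53, adjusted p = 0.0735 by edgeR), miR-223-5p was called (-2.54), miR-142a-5p was at -0.069, 1 erythroid member and 17 hairpins were called, and the arm difference of miR-223 was called. Over all alternatives, 187 results were the same, 12 reversed, 11 were no longer called, 7 became called and 20 moved. For fold changes and arm differences, the same means an unchanged direction and side of the threshold. For counts of calls it means a limited fold change in the count. For ratio differences it means a shift smaller than the pooled SD of the groups. Counts and ratio differences beyond these limits are those that moved.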
